A study of Homo sapiens with 9 samples.

Results

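HAL-01 leukemia cells that received sgRNA_97, a guide RNA directed at an enhancer of MEF2C, were compared with HAL-01 cells that received the scrambled guide sgRNA_SCR1. Libraries were chosen by their titles, which gave 3 libraries with sgRNA_97 and 3 with SCR1, numbered 1, 3 and 4 in each group, so that 6 of the 9 RNA-seq libraries of the series entered this comparison. HAL-01 is a line of B cell acute lymphoblastic leukemia (B-ALL) with the t(17;19) translocation, which fuses TCF3 to HLF. Per the labels, the cells of both groups, controls included, stably expressed Cas9 and GFP and were collected on day 13, the sgRNA_97 libraries being classed as MEF2C enhancer KO and the SCR1 libraries as control. The model has limits. All libraries came from a single cell line grown in bulk, the share of cells that carried an edit at the enhancer cannot be read from the expression tables, and the labels do not say whether the replicates were separate cultures, so the p-values measure only the spread between these libraries, which may be technical. In bulk RNA, fewer cells of a kind and less RNA per cell cannot be told apart.

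MEF2C is a MADS-box transcription factor that binds AT-rich DNA and takes part in lymphoid and myeloid development, and class IIa histone deacetylases bind MEF2 proteins and hold back their activity. The TCF3::HLF fusion protein joins the activation domains of TCF3 to the basic leucine zipper of HLF and therefore binds the DNA motif of the HLF family. Enhancers are stretches of DNA to which such factors bind to raise transcription of a gene at a distance, and cutting the bound motif with Cas9 leaves small insertions or deletions after repair. The question put by this arm of the study was how the transcriptome of the leukemia cells differed once the HLF motif in the MEF2C enhancer had been targeted.

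The study listed a pair of guides against the motif, named E.1 and E.2. Which of them is the guide numbered 97 was not stated, so both are shown, with the HLF motif in capitals, because they differ by a shift of 1 base and share 19 of their 20 bases.
E.1: tagcaTTACATAAtacatgt
E.2: ttagcaTTACATAAtacatg
Both match chromosome 5 of GRCh38 at 1 place, on the minus strand. E.1 lies at chr5:88825103-88825122 and is followed by GGG, and E.2 lies at chr5:88825104-88825123 and is followed by TGG, the short sequence (PAM) that Cas9 needs next to its target. The 100 bases around the motif, chr5:88825064-88825163 on the minus strand, are shown to place the guides in their surroundings, again with the motif in capitals.
Target: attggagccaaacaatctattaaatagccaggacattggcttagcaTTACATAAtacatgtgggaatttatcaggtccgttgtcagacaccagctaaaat
The motif TTACATAA occupies bases 88825110 to 88825117 of chromosome 5. It lies inside the MEF2C gene, which spans 88717117 to 88904257 on the minus strand in GENCODE 44, 79.1 kb from the 5′ end of the gene and in an intron: it overlaps no annotated exon and is 189 bases from the nearest MEF2C exon.

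The 6 libraries held between 15212453 and 29777350 estimated counts, with SCR1 replicate 1 the deepest. Mitochondrial genes took 7.01, 6.70 and 6.42% of the counts in sgRNA_97 replicates 1, 3 and 4. In the same replicates of SCR1 they took 5.97, 6.18 and 6.35%, so the groups did not overlap. Of the variance between libraries, 32.35% lay on the first principal component, on which the groups did not overlap, with sgRNA_97 libraries between -22.07 and -17.9 and SCR1 libraries between 16.67 and 24.84. The second carried 20.47% and set sgRNA_97 replicate 1 apart, at 31.26 against -18.24 and -12.94 for the other sgRNA_97 libraries. Levels below are CPM, counts scaled to a library total of 1000000 after normalization of the library sizes, given for replicates 1, 3 and 4 in that order. Fold changes are sgRNA_97 against SCR1, and adjusted p-values come from the quasi-likelihood test of edgeR with Benjamini-Hochberg correction over 14047 genes, with a threshold of 0.05. A gene is called higher or lower, or is said to have risen or fallen, when it passed that threshold. Of all genes tested, 8.29% were called higher and 9.08% lower, the shares beside which counts of list members below are to be read.

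MEF2C itself was slightly lower with sgRNA_97, but not beyond the spread between libraries. Its levels were 552, 502 and 496 CPM with sgRNA_97 and 558, 558 and 536 CPM with SCR1. Replicate 1 of sgRNA_97 lay within the control range and replicates 3 and 4 below it, so the groups overlapped. The log2 fold change was -0.09 (SE 0.05) and the adjusted p 0.219, and the 95% interval of the fold ran from 0.877 to 1.00, so a reduction of up to 12.3% was compatible with the data. Tested on its own, MEF2C gave p = 0.2 in an exact permutation test (two-sided), where 0.1 is the smallest p that 20 arrangements of 3 against 3 libraries allow. Without sgRNA_97 replicate 1, the log2 fold change was -0.15 with an adjusted p of 0.055, and after removal of a trend on GC content it was -0.13 and passed, with an adjusted p of 0.033. Because MEF2C overlaps MEF2C-AS1 on the opposite strand and the use of strand in counting was not stated, part of these counts may belong to the antisense RNA.

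The targeted motif lies 0.2 kb from the nearest of the annotated MEF2C transcript starts, so the counts were also split by where the transcripts start. The 7 transcripts that start within 1 kb of the motif held 108, 113 and 128 counts with sgRNA_97 and 190, 150 and 159 with SCR1. As a share of all MEF2C counts this was 1.29, 1.18 and 1.54% against 1.15, 1.53 and 1.40%, and these ranges overlapped. The 34 transcripts that start upstream of the motif held 90.4, 91.4 and 92.3% with sgRNA_97 against 92.6, 94.6 and 95.4%, and the 16 that start downstream 8.32, 7.44 and 6.16% against 6.24, 3.85 and 3.18%. The downstream ranges overlapped and the upstream ones did not. With sgRNA_96, the other enhancer guide of the series, the upstream shares were 95.8, 93.1 and 97.3%. Its downstream shares were 2.9, 6.21 and 1.87%, so that guide did not show the same difference from SCR1. Salmon divides reads among overlapping transcripts by likelihood, so these shares are estimates. No test was run on them.

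Of 17 MEF2 genes and regulators of MEF2 factors measured, MEF2C included, 1 was called. MEF2A measured 170.0, 184 and 176 CPM with sgRNA_97 and 156, 171 and 149 CPM with SCR1 (log2 fold change 0.16, SE 0.06, adjusted p = 0.0756), and passed only without SCR1 replicate 3 among the leave-outs, with an adjusted p of 0.027. MEF2D did not pass (0.03, adjusted p = 0.775), nor did MEF2B (-0.90, adjusted p = 0.149), which shares exons with BORCS8. HDAC9, a class IIa deacetylase whose gene is a known target of MEF2 factors, was measured at 25.1, 24.5 and 24.6 CPM with sgRNA_97 and at 36.3, 38.2 and 31.6 CPM in the controls. All 3 sgRNA_97 libraries were below all controls, and HDAC9 had fallen 1.43-fold (log2 fold change -0.51, SE 0.08, adjusted p = 0.00123). None of the 9 SIK and upstream kinases of class IIa deacetylases that were measured was called, and their log2 fold changes ran from -0.07 to 0.12.

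The response as a whole was wide and shallow. Of 14047 genes tested, 2439 were called (17.4%), 1164 higher (8.29%) and 1275 lower (9.08%), and the groups did not overlap in 2363 of the called genes, as against 34.8% of all genes tested. The median size of a called change was 0.31 on the log2 scale, which is 1.24-fold. Only 139 genes, 0.99% of those tested, were called with a change of at least 2-fold, 97 of them higher and 42 lower, and 11 and 8 of these reached 4-fold. That number was 281 without a filter on low counts, 46 with a minimum count of 50, 79 with an offset for transcript length, and 36 and 79 on the scales log2(TPM + 1) and log2(TPM + 0.1). Among the called genes, 45.3% of the higher and 60.9% of the lower ones changed by under 1.25-fold. The distribution had an upward tail, since 162 higher against 46 lower genes changed by 1.5 to 2-fold. The total was 1383 without sgRNA_97 replicate 3, 1256 without SCR1 replicate 1 and 1421 without SCR1 replicate 4, and 960 when an offset for transcript length in each library was added.

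**Figure D1:**
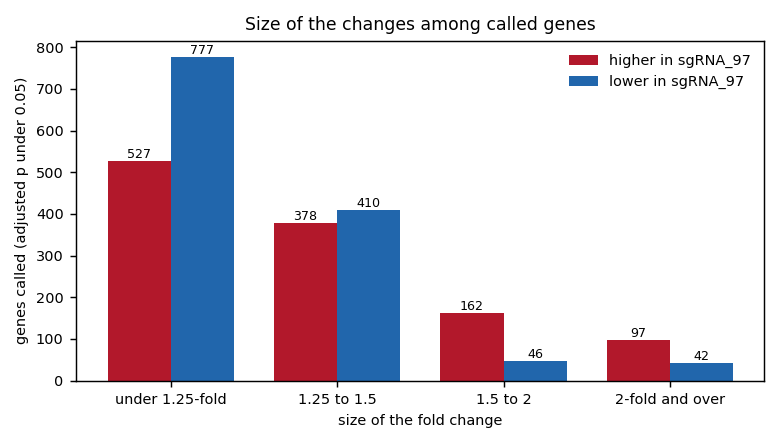
Number of genes called higher (red) and lower (blue) with sgRNA_97 against SCR1, by size of the fold change on the horizontal axis. Under 1.25-fold lower genes outnumber higher ones, 777 to 527, and from 1.5-fold on higher genes outnumber lower ones, 162 to 46 and then 97 to 42.

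Large and small changes fell in different kinds of genes. Protein-coding genes were called higher in 996 cases and lower in 1246, whereas of 1845 long noncoding RNAs tested 146 were higher and 14 lower. By control level, genes under 1 CPM were called higher in 54 and lower in 2 of 1197 cases and those at 1 to 10 CPM in 173 and 67 of 3319. The split under 1 CPM was partly set in advance. The count filter could keep such genes through their counts with sgRNA_97, and they had little room to be called lower. It is therefore no evidence on direction. Genes at 10 to 100 CPM, the largest class, had 676 higher and 723 lower of 7438, and genes at 100 CPM and over 261 and 483 of 2093. Called genes at 100 CPM and over had a median change of 0.24 on the log2 scale, against 1.53 for those under 1 CPM, where the counts allow only large changes to be called.

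Among called protein-coding genes with a symbol, no readthrough, no overlap and a mean of at least 2 CPM in the higher group, the largest increase was that of P2RY14, a G protein-coupled receptor for UDP-glucose found on hematopoietic progenitors. P2RY14 was measured at 13.1, 14.1 and 11.7 CPM with sgRNA_97 and 1.62, 1.76 and 1.23 CPM with SCR1. The change was 8.41-fold (log2 fold change 3.07, SE 0.18, adjusted p = 5.74e-07), and the lack of overlap was part of the rule. LPAR6, a receptor for lysophosphatidic acid in the same wider family, rose by 1.53-fold (0.62, adjusted p = 0.000133). Of 18 purinergic and lysophospholipid receptor and regulator genes measured, 2 were called higher, these same genes, and 2 lower, RGS16 (-0.57), a brake on G protein signalling, and LPAR1 (-0.34). These shares were close to those of all genes tested, 8.29% higher and 9.08% lower. The LPAR1 call was lost without sgRNA_97 replicate 1, 3 or 4 or without SCR1 replicate 1 or 3, adjusted p from 0.0508 to 0.106.

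The other large increases by this rule were in genes of low level and varied function. TIFAB, which holds back TRAF6 signalling, measured 4.49, 3.82 and 3.75 CPM against 0.813, 0.683 and 1.13 CPM (log2 fold change 2.18, SE 0.28, adjusted p = 0.000207). EFNA1, a ligand of Eph receptors, measured 4.30, 4.51 and 3.51 CPM against 1.29, 0.512 and 1.47 CPM (1.88, adjusted p = 0.00154). XKR4, a relative of the XKR8 lipid scramblase, measured 6.54, 2.99 and 2.68 CPM against 1.08, 1.37 and 1.32 CPM (1.69, adjusted p = 0.00505), with replicate 1 of sgRNA_97 above the other two. MACROD2, which removes ADP-ribose from proteins, rose 2.87-fold, DEPP1, a FOXO target linked to autophagy, 2.81-fold, and the calcium-gated chloride channel ANO2 2.75-fold. That the groups do not overlap in these genes was required by the rule. AMT, an enzyme of glycine cleavage, was also among the 8 largest (1.64, adjusted p = 0.00722), but its call was lost without sgRNA_97 replicate 3, adjusted p = 0.0525, and summed with the genes that share its exons, NICN1 among them, it measured 13.7 ± 3.18 CPM against 10.5 ± 1.34 CPM (SD, n = 3).

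The 8 changes with the smallest p-values among such genes were all increases, that of P2RY14 included. RAG1, the recombinase that starts immunoglobulin gene rearrangement, was at 514, 525 and 504 CPM with sgRNA_97 and 255, 293 and 276 CPM with SCR1. RAG1 rose 1.88-fold (log2 fold change 0.91, SE 0.05, adjusted p = 5.74e-07). TXNIP, an inhibitor of thioredoxin and of glucose uptake that is transcribed in response to glucose, was at 141, 159 and 147 CPM against 54.7, 65.7 and 64.7 CPM, a 2.43-fold rise (log2 fold change 1.28, SE 0.07, adjusted p = 5.74e-07). FLT4, the receptor for VEGF-C, measured 56.3, 61.8 and 66.1 CPM against 31.9, 30.5 and 29.9 CPM, a 1.99-fold rise (log2 fold change 1.00, SE 0.07, adjusted p = 3.15e-06). The others were COL5A1, a fibrillar collagen chain (0.94), F13A1, a coagulation factor subunit (0.89), ELK3, an ETS-family repressor (0.78), and NRN1, a membrane-anchored neurite growth factor (0.72). Lack of overlap between the groups was part of the rule that picked these genes.

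**Figure D2:**
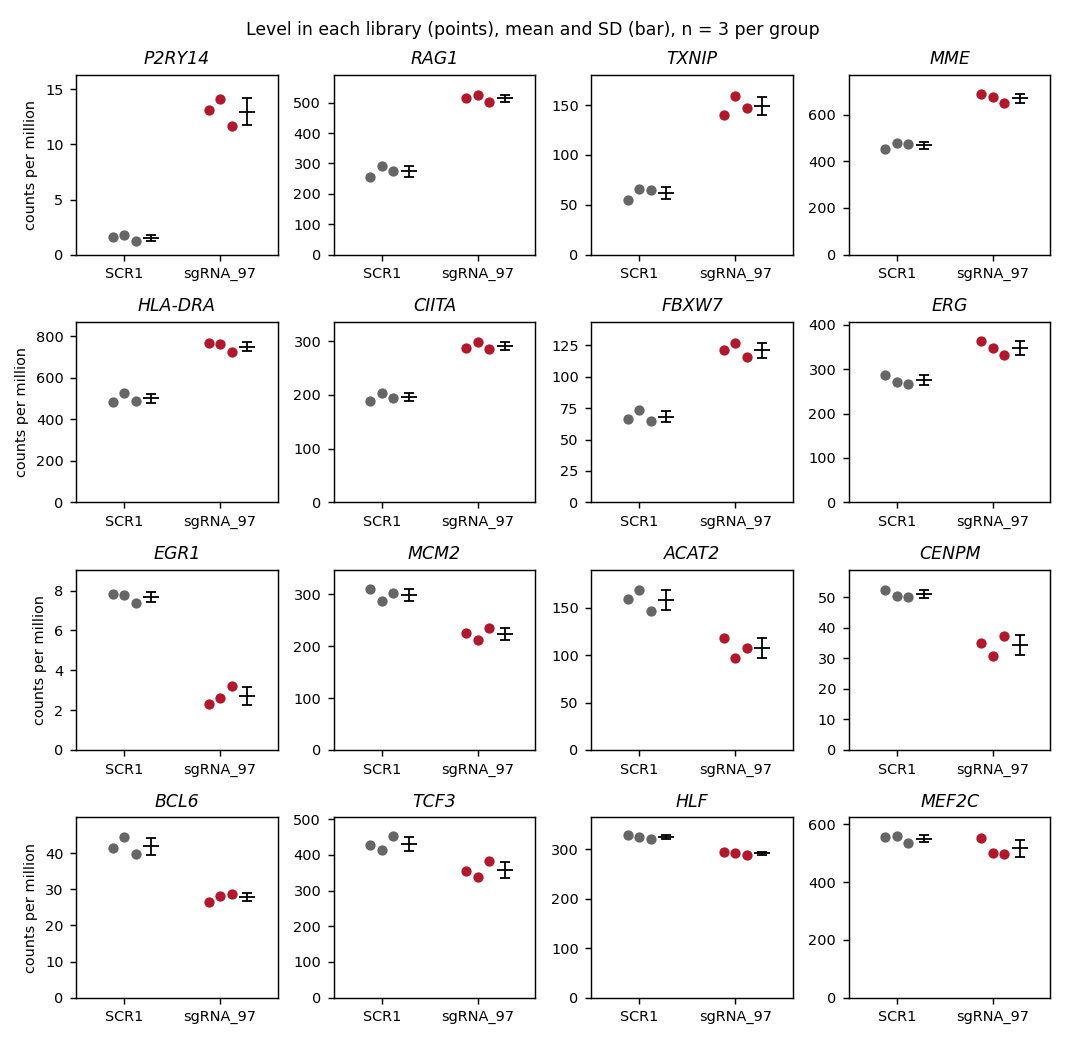
CPM on a linear axis of 16 genes in each library, sgRNA_97 and SCR1 replicates as separate points. P2RY14, RAG1, TXNIP and the MHC class II genes stand above their controls and EGR1, MCM2, ACAT2, CENPM and BCL6 below, while the MEF2C points of the groups overlap.

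Genes that fell by 2-fold or more were of low level, with a median of 2.41 CPM in the controls. Those that rose by 2-fold or more were lower still there, with a median of 0.882 CPM. EGR1, a transcription factor induced within minutes by growth signals, was at 2.31, 2.62 and 3.21 CPM with sgRNA_97 and 7.85, 7.80 and 7.37 CPM with SCR1. EGR1 fell 2.82-fold (log2 fold change -1.49, SE 0.18, adjusted p = 0.00012). SPRY4, which dampens receptor tyrosine kinase signalling, measured 1.06, 0.681 and 1.07 CPM against 3.42, 3.81 and 2.13 CPM (log2 fold change -1.74, SE 0.32, adjusted p = 0.00265). TSC22D3, a glucocorticoid-induced gene, measured 2.91, 2.41 and 1.31 CPM against 6.03, 6.26 and 4.87 CPM (-1.37, adjusted p = 0.00265). MYT1L, a neuronal zinc finger factor, also fell (-1.54, adjusted p = 0.00559). Another 3 genes among the largest decreases each depended on a single library. The call of TNFRSF9, the costimulatory receptor 4-1BB (-2.04, adjusted p = 0.0132), was lost without SCR1 replicate 3, adjusted p = 0.0524, that of S100A8, a calcium-binding protein of phagocytes (-1.60, adjusted p = 0.00948), without SCR1 replicate 1, adjusted p = 0.0726, and that of SLC16A3, a lactate exporter (-1.46, adjusted p = 0.0105), without sgRNA_97 replicate 3, adjusted p = 0.0525.

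The largest decrease under the naming rule given for P2RY14 belongs to a gene model whose reads can be assigned to another. CDC42EP2, an effector of the GTPase CDC42, was at 0, 0.419 and 0 CPM against 1.96, 1.54 and 2.84 CPM (-3.73, adjusted p = 0.00265). It shares exons on the same strand with ENSG00000285816, and the counts of both together gave 1.80 ± 0.592 CPM with sgRNA_97 and 2.10 ± 0.645 CPM with SCR1 (SD, n = 3), a difference within the spread. TUBB3 and IGLL5, whose values were seen before they were chosen, fell as well. TUBB3, a neuronal tubulin, was at 23.7, 20.2 and 25.6 CPM against 51.3, 45.1 and 45.3 CPM (log2 fold change -1.04, SE 0.09, adjusted p = 1.28e-05), and IGLL5, a lambda light chain-like gene whose reads can be shared with immunoglobulin lambda genes, at 5.22, 7.44 and 7.26 CPM against 14.3, 14.2 and 16.8 CPM (log2 fold change -1.18, SE 0.14, adjusted p = 0.000149).

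The transcripts of the fusion partners were slightly lower with sgRNA_97. TCF3 measured 354, 339 and 383 CPM with sgRNA_97 and 427, 414 and 453 CPM with SCR1, without overlap (log2 fold change -0.27, SE 0.05, adjusted p = 0.00483). HLF measured 294, 292 and 289 CPM against 329, 324 and 320.2 CPM, also without overlap, but the change was small (log2 fold change -0.15, SE 0.04, adjusted p = 0.0257) and its call was lost without sgRNA_97 replicate 3 or 4 or without SCR1 replicate 1, 3 or 4, adjusted p from 0.0612 to 0.0914. Counts per gene do not separate the TCF3::HLF fusion transcript from normal TCF3 or HLF transcripts. TCF4, an E protein related to TCF3, rose from 368, 386 and 366 CPM in the controls to 507, 478 and 492 CPM (log2 fold change 0.40, SE 0.05, adjusted p = 8.8e-05), and NFIL3, a repressor that binds the same DNA motif as HLF, fell (-0.47, adjusted p = 0.0154), a call that was lost without sgRNA_97 replicate 3 or without SCR1 replicate 1 or 3, adjusted p from 0.0545 to 0.0661.

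Genes of DNA replication fell together. This machinery licenses origins with the MCM helicase, activates it with CDC45 and the GINS complex and copies DNA with PCNA as sliding clamp. Of 52 members measured, 38 were called lower and 0 higher, against 9.08% lower among all genes tested, and the median log2 fold change was -0.29 against 0.00 over all genes. GINS2, a GINS subunit, was at 70.7, 69.4 and 68.4 CPM against 99.0, 96.7 and 97.9 CPM (log2 fold change -0.49, SE 0.05, adjusted p = 5.22e-05). MCM2 was at 225, 212 and 235 CPM against 309, 287 and 302 CPM (log2 fold change -0.42, SE 0.05, adjusted p = 0.000185). Neither gene overlapped between groups, and the same held for MCM4 (-0.37), PCNA (-0.32) and TK1, the salvage kinase of thymidine (-0.51). With any single library left out, 30 to 36 of the 52 were called lower, and 22 were when changes in transcript length were taken into account.

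Other genes of proliferation fell less far or in smaller shares. In G1 control, 11 of 21 members were lower and 2 higher, with a median of -0.23. CCND3, the cyclin D that B cell progenitors rely on, was at 542, 579 and 571 CPM against 707, 702 and 701 CPM (log2 fold change -0.32, SE 0.04, adjusted p = 0.00032), its partner CDK4 at -0.31, the phosphatase CDC25A at -0.38 and CDK2 at -0.31 on the log2 fold change scale, and CCNE1, the cyclin of CDK2, had the largest decrease of the list (-0.67, adjusted p = 0.0115). The 2 higher members were the inhibitor CDKN1B (0.18) and the pocket protein RBL2 (0.17), whose calls were lost without sgRNA_97 replicate 1, 3 or 4 or without SCR1 replicate 1 or 4, adjusted p from 0.0576 to 0.208 for CDKN1B, and without sgRNA_97 replicate 1, 3 or 4 or without SCR1 replicate 1 or 4, adjusted p from 0.0665 to 0.227 for RBL2. In mitosis, 20 of 53 members were lower and 0 higher (median -0.15), among them CENPM, a kinetochore protein (35.2, 30.9 and 37.4 CPM against 52.6, 50.5 and 50.1 CPM, log2 fold change -0.57), CCNA2 (-0.35), FOXM1, which drives transcription of mitotic genes (-0.31), and BIRC5 (-0.31). That count fell to 12 without sgRNA_97 replicate 3, 13 without sgRNA_97 replicate 4, 11 without SCR1 replicate 1 and 8 without SCR1 replicate 4, and the G1 count to 7 without SCR1 replicate 1.

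Supply and repair of DNA followed the same direction. Of 31 genes of nucleotide and folate metabolism, 15 were lower and 0 higher (median -0.18), including the ribonucleotide reductase subunits RRM2, at 273, 287 and 267 CPM against 350.2, 381 and 344 CPM (log2 fold change -0.38, SE 0.05, adjusted p = 0.00038), and RRM1 (-0.29), and the nucleoside diphosphate kinase NME1 (-0.41). Of 35 DNA repair and checkpoint genes, 12 were lower and 1 higher (median -0.14). XRCC3, which takes part in homologous recombination (-0.37), and the checkpoint kinase CHEK1 (-0.29) were lower, and the higher one was ATM, the kinase that senses double-strand breaks, at 211, 220.0 and 209.8 CPM against 155, 167 and 161 CPM (log2 fold change 0.41, SE 0.05, adjusted p = 0.000143). The repair count fell to 7 without sgRNA_97 replicate 4, 5 without SCR1 replicate 3 and 7 without SCR1 replicate 4.

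Histone genes split by class. Replication-dependent histone genes, whose mRNAs normally end without a poly(A) tail and which a poly(A)-based kit captures only in part, had 8 higher and 0 lower of 18 measured (median 0.66), whereas replication-independent ones had 0 higher and 2 lower of 7. H2BC21 was at 32.3, 37.0 and 34.5 CPM against 17, 17.3 and 20.1 CPM (log2 fold change 0.94, SE 0.09, adjusted p = 3.18e-05), H2AC6 rose 1.54-fold and H1-2, a linker histone, 1.54-fold. H2AZ1, a replication-independent variant, fell from 533, 508 and 531 CPM to 425, 406 and 418 CPM (log2 fold change -0.33, SE 0.04, adjusted p = 0.000284). Clustered histone genes have near-identical copies, so their single values are uncertain.

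Metabolic and protein quality genes were lower in large shares. In cholesterol and fatty acid synthesis, 22 of 38 members were lower and 0 higher, with a median of -0.25. ACAT2, which makes acetoacetyl-CoA for the sterol pathway, was at 118, 97.1 and 108 CPM against 159.6, 169 and 147 CPM (log2 fold change -0.56, SE 0.07, adjusted p = 0.000233), the sterol isomerase EBP at 61.7, 61.6 and 61.5 CPM against 97.2, 94.1 and 79.7 CPM (log2 fold change -0.55, SE 0.07, adjusted p = 0.000253), and FDPS, which makes farnesyl diphosphate, fell as well (-0.40), as did the desaturase FADS2 (-0.37) and SQLE (-0.27). ACAT2 overlaps TCP1, a CCT subunit gene on the opposite strand, and FADS2 shares exons on the same strand with FEN1.

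Among proteasome and CCT chaperonin genes, which degrade and fold proteins, 28 of 39 were lower and 0 higher (median -0.22), for example PSMD11 (125, 118 and 123 CPM against 155, 151 and 156 CPM, log2 fold change -0.34), PSMD3 (-0.37), PSMC1 (-0.31) and PSMD2 (-0.31). The count fell to 16 without sgRNA_97 replicate 3, 18 without SCR1 replicate 1, 10 with the offset for transcript length and 11 on either TPM scale. Nuclear genes of oxidative phosphorylation had 32 lower and 0 higher of 77 (median -0.17), complex I contributing 12 of 38 and complexes II to V 20 of 39. UQCRC1 of complex III was at 119, 129 and 129.9 CPM against 181, 158 and 162 CPM (log2 fold change -0.41, SE 0.06, adjusted p = 0.000673) and NDUFA6 of complex I at 30.0, 33.4 and 29.8 CPM against 44.4, 40.8 and 42.0 CPM (log2 fold change -0.45, SE 0.07, adjusted p = 0.00122). By contrast, none of the 13 mitochondrially encoded subunits was lower, and MT-CO1 was called higher (0.17, adjusted p = 0.00411). The share of mitochondrial counts was also higher in every sgRNA_97 library than in every control. The part of that share in this contrast was not tested. The nuclear count depended on the libraries, at 14 without sgRNA_97 replicate 3 and 13 without SCR1 replicate 1 or 4, and on the processing, at 8 with the offset for transcript length and 15 on either TPM scale, and the mitochondrial one was 4 without sgRNA_97 replicate 4.

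Glycolysis and the response to low oxygen differed. Of 23 glycolytic genes, 12 were lower and 1 higher (median -0.17), whereas of 16 hypoxia targets 3 were higher and 2 lower. LDHA, which turns pyruvate into lactate, was at 535, 476 and 483 CPM against 625, 623 and 640.3 CPM (log2 fold change -0.34, SE 0.05, adjusted p = 0.000614), and ENO1 (-0.30), PKM (-0.30) and GAPDH (-0.25) also fell without overlap. GAPDH, often used as a reference transcript, measured 3036, 3034 and 3175 CPM with sgRNA_97 and 3939, 3495 and 3594 CPM with SCR1. Over both classes, the 14 lower and 4 higher calls became 9 and 2 without sgRNA_97 replicate 3 and 9 and 1 without SCR1 replicate 1, and the higher ones became 2 without sgRNA_97 replicate 1 or 4 or SCR1 replicate 3.

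Ribosome biogenesis genes were in part lower, and few ribosomal protein genes were called. Among 60 ribosome biogenesis genes, 21 were lower and 1 higher (median -0.15), with EBNA1BP2 at 53.8, 50.6 and 59.4 CPM against 77.8, 70.6 and 76.1 CPM (log2 fold change -0.46, SE 0.07, adjusted p = 0.000742), nucleolin (NCL) at -0.28, RRS1 at -0.42 and MRTO4 at -0.38. The count was 8 without sgRNA_97 replicate 3, 7 without SCR1 replicate 1, 10 without SCR1 replicate 4, 7 with the offset for transcript length and 7 or 8 on the TPM scales. The 1 higher call was lost without sgRNA_97 replicate 3 or SCR1 replicate 1 or 3. Of 79 cytosolic ribosomal protein genes, 9 were higher and 1 lower, with a median of 0.05. In all 12.7% of them were called, against 17.4% of all genes tested. RPS3A was at 2762, 2784 and 2598 CPM against 2333, 2388 and 2385 CPM (log2 fold change 0.20, SE 0.04, adjusted p = 0.0039), RPL39 rose by 0.25 on the log2 scale, and RPS26 was the lower one (-0.31). The 9 became 3 to 16 with single libraries left out and 43 after removal of the trend on transcript length, so their number rests on the processing. Ribosomal protein genes have many processed copies, among which reads can be divided.

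**Figure D3:**
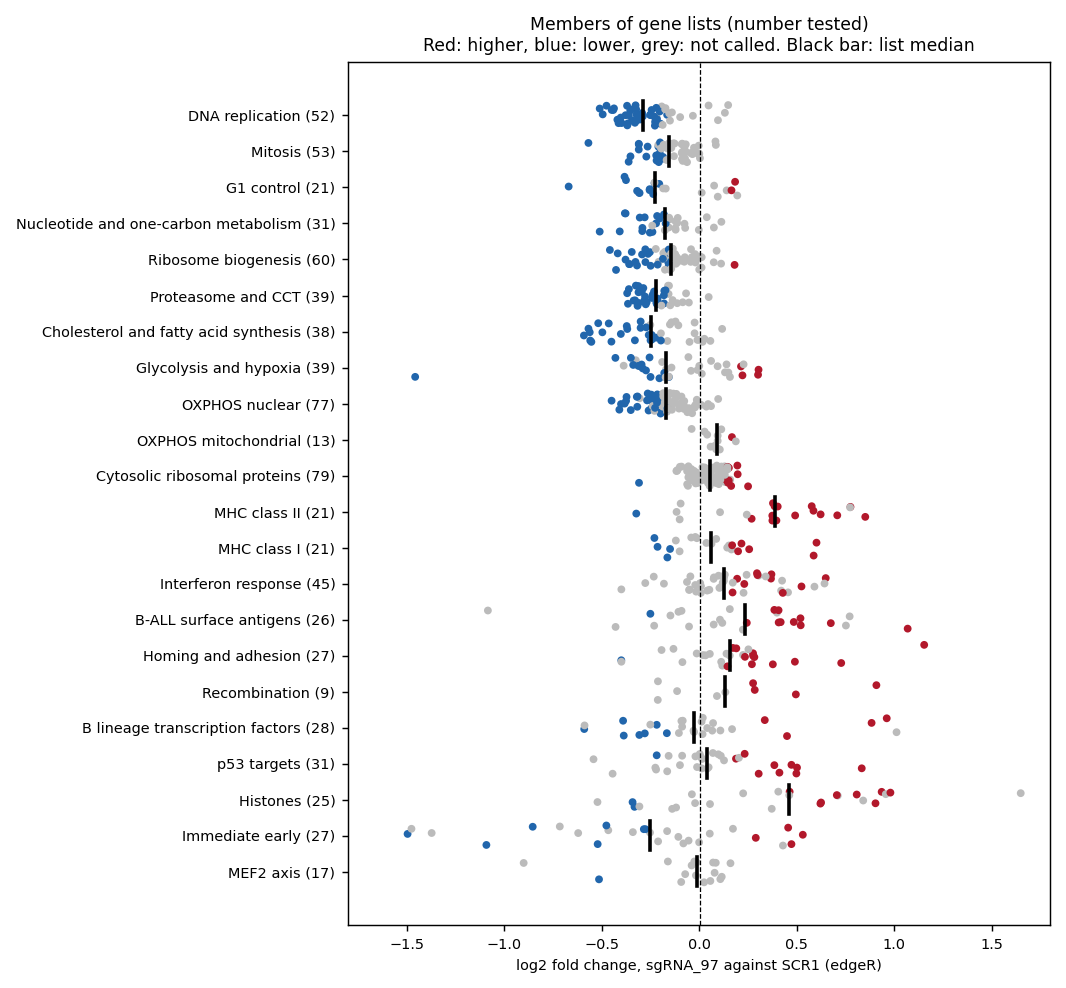
Each point is a gene's log2 fold change, sgRNA_97 against SCR1, for 22 gene lists, with the number of members tested in brackets. Members called higher are red, called lower blue and not called grey, the black bar is the list's median and the dashed line marks 0. Replication, sterol, proteasome and respiratory genes lie to the left and MHC class II, surface antigen and clustered histone genes to the right.

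Antigen presentation genes of MHC class II rose, most of them together. CIITA, the coactivator that switches on class II transcription, was at 287, 299 and 286 CPM with sgRNA_97 and 188, 203 and 195 CPM with SCR1, a 1.49-fold rise without overlap (log2 fold change 0.58, SE 0.05, adjusted p = 8.54e-06). HLA-DRA, the alpha chain of all HLA-DR molecules, was at 767, 764 and 724 CPM against 486, 527 and 490.1 CPM (log2 fold change 0.59, SE 0.05, adjusted p = 6.58e-06), HLA-DPB1 at 159, 158 and 164 CPM against 107, 106 and 99.8 CPM (log2 fold change 0.62, SE 0.05, adjusted p = 7.51e-06). HLA-DMB, part of the peptide editor, rose 1.8-fold. In all, 14 of 21 members were higher and 1, the lysosomal reductase IFI30 (-0.32), was lower, against 8.29% and 9.08% of all genes, with a median of 0.39. The count of 14 higher was the same with any single library left out, and the IFI30 call was lost without sgRNA_97 replicate 3 or without SCR1 replicate 1 or 4, adjusted p from 0.0602 to 0.0952. Beta and alpha chain genes of the DR and DQ families are near-identical and polymorphic, so HLA-DRB1 (0.38) and HLA-DQA1 (0.71) are uncertain as single genes.

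MHC class I genes were mixed. Of 21 measured, 6 were higher and 4 lower (median 0.06), against 8.29% and 9.08% of all genes tested. NLRC5, the class I counterpart of CIITA, was at 145, 173 and 170.2 CPM against 109, 109 and 108 CPM (log2 fold change 0.59, SE 0.06, adjusted p = 7.17e-05), and B2M, the light chain of all class I molecules, at 1709, 1790.3 and 1646 CPM against 1412, 1452 and 1446 CPM (log2 fold change 0.26, SE 0.04, adjusted p = 0.00112). HLA-F (0.60) and HLA-B (0.22) were higher. The lower members were the proteasome-related PSMB10 and PSME1 and the chaperones CALR and CANX, all 4 of which lost their call without sgRNA_97 replicate 3, SCR1 replicate 1 or SCR1 replicate 4. Of 45 interferon response genes, 10 were higher and 0 lower (median 0.13), which is 22.2% called against 17.4% of all genes tested. GBP4, a guanylate-binding protein, was at 106, 101 and 89.8 CPM against 64.9, 64.2 and 60.4 CPM (log2 fold change 0.65, SE 0.07, adjusted p = 4.53e-05), SAMD9L at 0.52, TRIM22 at 0.37 and STAT2 at 0.30 on the log2 fold change scale, and the STAT2 call was lost without sgRNA_97 replicate 3 or without SCR1 replicate 1, adjusted p from 0.0632 to 0.0741. That count was 6 without sgRNA_97 replicate 3, 3 without SCR1 replicate 1 and 5 without SCR1 replicate 4.

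Recombination and surface genes that mark B cell precursors rose in part. Of 9 recombination genes, 4 were higher and 0 lower: RAG1, RAG2 (112, 107 and 102 CPM against 88.2, 86.1 and 90.4 CPM, log2 fold change 0.28), DNTT, the template-independent polymerase of early lymphocytes (2556, 2545 and 2461 CPM against 2035, 2042 and 2132 CPM, 0.28), and LIG4, which seals the joined ends (0.50). RAG1 and RAG2 overlap in exons on opposite strands, so without known strand use their reads cannot be fully told apart. Of 26 surface antigens of B-ALL, 10 were higher and 1 lower (median 0.23). MME, the protease CD10 that marks precursor B-ALL, was at 688, 673 and 649.8 CPM against 451, 477 and 475 CPM (log2 fold change 0.52, SE 0.04, adjusted p = 9.35e-06), CD52, an antibody target, at 190.2, 180.3 and 167 CPM against 130.3, 123 and 121 CPM (log2 fold change 0.52, SE 0.06, adjusted p = 7.84e-05), CD37, a tetraspanin, at 0.67 and LAIR1, an inhibitory collagen receptor, at 0.41. CD81, a tetraspanin of the B cell coreceptor, was the lower one (-0.25, adjusted p = 0.0152), a call lost without sgRNA_97 replicate 1 or 3 or without SCR1 replicate 1, adjusted p from 0.05 to 0.0777.

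Components that define B lineage identity did not move as a group. PAX5 measured 551, 554 and 566 CPM against 580.2, 563 and 559 CPM (-0.03, adjusted p = 0.706) and EBF1 245, 232 and 227 CPM against 244, 260.3 and 244 CPM (-0.09, adjusted p = 0.232), both with overlap. CD22 (0.11, adjusted p = 0.167), CD79A (-0.19, adjusted p = 0.0872), CD79B (-0.19, adjusted p = 0.1) and VPREB1 (0.16, adjusted p = 0.0666) did not pass either. Of these 6 genes all but PAX5 passed the threshold in at least 1 alternative fit that kept all 6 libraries. Their levels place the cells in the B lineage, as labelled. Of 25 pre-B receptor and signalling genes, 5 were higher and 2 lower. BLNK, the adaptor that links the receptor to its kinases, was at 154, 167 and 151 CPM against 119, 126 and 121 CPM (log2 fold change 0.37, SE 0.05, adjusted p = 0.000611), VPREB3 rose by 0.36 and CD72 by 0.56, while the kinase LYN (-0.23) and the surrogate light chain gene IGLL1 (-0.20) fell, calls lost without sgRNA_97 replicate 3 or 4 or without SCR1 replicate 1 or 3, adjusted p from 0.0776 to 0.091 for LYN and without sgRNA_97 replicate 1 or 3 or without SCR1 replicate 1 or 4, adjusted p from 0.0544 to 0.174 for IGLL1. The higher ones numbered 3 when any library but sgRNA_97 replicate 1 was left out.

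Transcription factors of the B lineage changed in both directions, 4 higher and 7 lower of 28, against 8.29% and 9.08% of all genes tested. BCL6, a repressor that lets pre-B cells tolerate DNA breaks, was at 26.6, 28.2 and 28.7 CPM against 41.5, 44.5 and 39.8 CPM (log2 fold change -0.59, SE 0.07, adjusted p = 0.000185). RUNX1 was at 145, 135 and 138 CPM against 189, 176 and 179 CPM (log2 fold change -0.39, SE 0.05, adjusted p = 0.000313), and IKZF1 (-0.22), IRF4 (-0.31) and ETS1 (-0.28) were also lower, the calls of IKZF1 and ETS1 being lost without sgRNA_97 replicate 3 or without SCR1 replicate 1 or 4, adjusted p from 0.051 to 0.0619, and without sgRNA_97 replicate 1, 3 or 4 or without SCR1 replicate 1, 3 or 4, adjusted p from 0.0536 to 0.137. On the higher side IKZF3, an Ikaros family member, was at 11.6, 12.9 and 11.4 CPM against 5.55, 6.43 and 6.57 CPM (log2 fold change 0.96, SE 0.13, adjusted p = 0.00034), BCL11A at 79.2, 77.3 and 76.4 CPM against 52.7, 61.5 and 56.7 CPM (log2 fold change 0.45, SE 0.06, adjusted p = 0.000541), FOXO1, which drives RAG transcription in B cell precursors, at 0.34 and RORA at 0.88. The RORA call was lost without sgRNA_97 replicate 3 or 4 or without SCR1 replicate 1 or 4, adjusted p from 0.0985 to 0.134. The lower count was 4 without sgRNA_97 replicate 3 or SCR1 replicate 1.

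Adhesion and homing genes were more often called higher than all genes tested, of which 8.29% were. Of 27 measured, 12 were higher and 1 lower (median 0.16), made up of 6 of 16 integrins and selectins, 5 of 10 cadherins and synaptic adhesion genes, and CXCR4 (0.14), the receptor for the marrow chemokine CXCL12. FAT3, a giant cadherin, was at 123, 112 and 126 CPM against 74.2, 73.4 and 70.1 CPM (log2 fold change 0.73, SE 0.06, adjusted p = 7.34e-06), ITGA4, part of VLA-4, at 254, 261 and 245 CPM against 197, 215 and 215 CPM (log2 fold change 0.28, SE 0.05, adjusted p = 0.00303), and ITGA6, part of a laminin receptor, at 0.49. IGSF11, an adhesion molecule and ligand of VISTA, was the lower one, at 82.9, 79.4 and 80.8 CPM against 111, 103 and 106 CPM (log2 fold change -0.40, SE 0.05, adjusted p = 0.000358). The count of higher members was 7 without sgRNA_97 replicate 3, 6 without SCR1 replicate 1 and 7 without SCR1 replicate 4, and the CXCR4 call was lost without sgRNA_97 replicate 1, 3 or 4 or without SCR1 replicate 1 or 4, adjusted p from 0.0787 to 0.227.

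Of 12 stem and progenitor transcription factors measured, 4 were higher and 2 lower, against 8.29% and 9.08% of all genes tested. ERG was at 364, 348 and 332 CPM with sgRNA_97 and 288, 271 and 267 CPM with SCR1 (log2 fold change 0.34, SE 0.05, adjusted p = 0.000722), ETV6 at 96.5, 96.8 and 96.4 CPM against 58.5, 67.8 and 63.2 CPM (log2 fold change 0.62, SE 0.06, adjusted p = 3.46e-05), and LMO2, a bridge in progenitor transcription complexes, at 156, 145 and 157 CPM against 109, 101 and 102 CPM (log2 fold change 0.55, SE 0.05, adjusted p = 3.18e-05). None of the 3 overlapped between groups. The fourth higher gene was MLLT3, none of the 7 surface and secreted members was called, and the lower ones were the Polycomb subunit BMI1 (-0.16) and HLF, whose calls did not hold with single libraries left out (for BMI1, without sgRNA_97 replicate 3 or without SCR1 replicate 1 or 4, adjusted p from 0.0619 to 0.0879). Of 16 ETS factors, 5 were higher and 1 lower, with a median of 0.06. Over ETS and KLF factors, 6 of 23 were higher and 1 lower, and the higher ones were 3 without sgRNA_97 replicate 1, sgRNA_97 replicate 3, SCR1 replicate 1 or SCR1 replicate 4.

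Early response genes and feedback inhibitors of ERK signalling were lower where called in most cases. Beside EGR1, the AP-1 genes FOS (1.98, 2.10 and 1.49 CPM against 3.42, 5.01 and 3.54 CPM, -1.09, adjusted p = 0.00966) and JUN (3.17, 3.88 and 4.23 CPM against 6.50, 8.65 and 5.39 CPM, -0.85, adjusted p = 0.0115) fell without overlap, as did SRF, the factor that drives them (-0.28). DUSP1, the phosphatase that switches off MAP kinases, was at 54.6, 53.7 and 54.9 CPM against 82.4, 89.8 and 79.9 CPM (log2 fold change -0.63, SE 0.06, adjusted p = 2.97e-05). Counts were 4 higher and 7 lower of 27 immediate early genes (median -0.25) and 0 higher and 4 lower of 15 ERK feedback genes (median -0.04). The higher early genes included CCN2, a matricellular protein (0.53), and BTG2, an antiproliferative gene and p53 target (0.47). Of the feedback genes DUSP2 (-0.49) and SPRY2 (-0.23) lost their calls, DUSP2 without sgRNA_97 replicate 3 or without SCR1 replicate 1 or 4, adjusted p from 0.0631 to 0.0817 and SPRY2 without sgRNA_97 replicate 1, 3 or 4 or without SCR1 replicate 1, 3 or 4, adjusted p from 0.0756 to 0.159, and the list count was 2 without SCR1 replicate 1 or 4.

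Targets of p53 rose selectively. FBXW7, the ubiquitin ligase subunit that marks MYC and cyclin E for destruction, was at 121, 127 and 115 CPM against 66.7, 73.2 and 64.6 CPM, a 1.78-fold rise (log2 fold change 0.83, SE 0.06, adjusted p = 3.51e-06). ZMAT3 was at 144, 147 and 138 CPM against 98.4, 106 and 99.5 CPM (log2 fold change 0.50, SE 0.05, adjusted p = 5.56e-05), and TP53INP1 rose by 0.50 and SESN1 by 0.41. CDKN1A, the p21 inhibitor and classical p53 target, measured 334, 336 and 357 CPM against 349, 339.5 and 329.6 CPM, with overlap (0.01, adjusted p = 0.882). In total 9 of 31 were higher and 1, AEN (-0.22), lower, with a median of 0.04, and the AEN call was lost without sgRNA_97 replicate 3 or without SCR1 replicate 1 or 4, adjusted p from 0.0506 to 0.12.

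MYC measured 591, 661 and 669.7 CPM against 553, 575 and 633 CPM, with overlap (0.13, adjusted p = 0.162), and 3 of 11 MYC network genes were called, all higher. MLXIP, the glucose-sensing partner of MLX that activates TXNIP, was at 213, 226 and 229.7 CPM against 163, 163 and 162 CPM (log2 fold change 0.46, SE 0.05, adjusted p = 5.56e-05), and MXI1 (0.30) and MXD4 (0.23), antagonists of MYC, were the others. The calls of MXI1 and MXD4 were lost without sgRNA_97 replicate 1 or 3 or without SCR1 replicate 1, adjusted p from 0.0539 to 0.0952 for MXI1, and without sgRNA_97 replicate 1, 3 or 4 or without SCR1 replicate 1 or 4, adjusted p from 0.0513 to 0.182 for MXD4. Of 14 BCL2 family genes measured only BIK, a pro-apoptotic member of low level, was called (0.33, 0.21 and 0.476 CPM against 1.08, 0.911 and 1.23 CPM, -1.67, adjusted p = 0.0197), and this call was lost without sgRNA_97 replicate 1 or 3 or without SCR1 replicate 1 or 4, adjusted p from 0.0535 to 0.0983.

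Of the cytokine receptor and JAK-STAT genes 20.7% were called, and of the NF-kB and TNF receptor genes 32.4%, against 17.4% of all genes tested. SOCS2, a feedback inhibitor induced by STAT5, was at 479.9, 449.9 and 471 CPM against 333, 322 and 354 CPM (log2 fold change 0.47, SE 0.05, adjusted p = 4.91e-05). CRLF2, the TSLP receptor that is overexpressed in some B-ALL, was at 4.76, 5.24 and 4.70 CPM against 2.37, 2.16 and 2.46 CPM (log2 fold change 1.07, SE 0.20, adjusted p = 0.00289), JAK2 at 23.3, 26.7 and 26.2 CPM against 18.1, 20.8 and 18.2 CPM (log2 fold change 0.42, SE 0.09, adjusted p = 0.00791), while IL7R measured 459, 448 and 447 CPM against 433, 453 and 442 CPM with overlap (0.03, adjusted p = 0.695). Of the 29 cytokine receptor and JAK-STAT genes, 6 were higher and 0 lower. Of 34 NF-kB and TNF receptor genes, 6 were higher, such as TNFAIP3, the A20 inhibitor of NF-kB (0.43), and TNFRSF13C, the BAFF receptor (0.41), and 5 lower, such as NFKBIB (-0.46). Those counts were 3 higher without SCR1 replicate 4 and 3 lower without sgRNA_97 replicate 3 or SCR1 replicate 1.

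In the remaining lists the calls went both ways. Splicing factors had 9 higher and 11 lower of 44, which is 45.5% called against 17.4% of all genes tested. LUC7L3 was at 506, 514 and 501 CPM against 378, 404 and 399 CPM (log2 fold change 0.37, SE 0.04, adjusted p = 0.000148) and SRSF11 rose by 0.26, whereas HNRNPM (-0.29) and HNRNPF (-0.24) fell. Without SCR1 replicate 1 or 4 the lower count was 3, without sgRNA_97 replicate 3 it was 4 and the higher count 5. Of 58 genes of amino acid stress, tRNA charging and the unfolded protein response, 3 were higher and 9 lower. At 20.7% called, this list was close to the 17.4% of all genes tested. XBP1, a central factor of that response, was at 819, 814 and 815 CPM against 638, 662 and 672 CPM (log2 fold change 0.31, SE 0.04, adjusted p = 0.000262), EDEM1, which sends misfolded proteins to degradation, rose by 0.34, and the tRNA synthetase WARS1 (-0.38) and the ER chaperone cofactor SDF2L1 (-0.56) fell. The lower count was 15 without sgRNA_97 replicate 3 and 3 without SCR1 replicate 1.

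Chromatin and lysosome genes were called in shares close to those of all genes tested (8.29% higher and 9.08% lower). Of 60 chromatin regulators, 3 were higher and 6 lower, among them UHRF1 (622, 596 and 659 CPM against 774, 753 and 811 CPM, -0.32) and DNMT1 (-0.24), which together maintain DNA methylation after replication, and KDM5B, a histone demethylase, on the higher side (0.35). Of 38 lysosome and autophagy genes, 3 were higher, CTSS, the protease that processes the class II invariant chain (0.38), SCARB2 (0.25) and TPP1 (0.21), and 3 lower, the cargo receptor SQSTM1 (-0.34) with GLA and CTSC. The TPP1 call was lost without SCR1 replicate 4, adjusted p = 0.0518, and the 3 lower ones were 1 without sgRNA_97 replicate 3 or SCR1 replicate 1. Of 20 long noncoding RNAs chosen for their abundance, 5 were higher and 2 lower. The higher ones numbered 3 without sgRNA_97 replicate 3 or SCR1 replicate 4, and the lower ones 0 or 1 when any library but sgRNA_97 replicate 1 was left out. LINC01013 was at 38.5, 40.8 and 40.4 CPM against 21.6, 17.3 and 18.6 CPM (log2 fold change 1.05, SE 0.09, adjusted p = 8.54e-06) and NEAT1, the scaffold of paraspeckles, at 212, 289.7 and 252 CPM against 149, 177 and 186 CPM (log2 fold change 0.56, SE 0.10, adjusted p = 0.00201). LINC01013 and CCN2 overlap in exons on opposite strands, so without known strand use their rises may rest in part on the same reads. MALAT1 was at 191, 326 and 316 CPM against 198, 191 and 158 CPM, with sgRNA_97 replicate 1 inside the control range, and its call (0.61, adjusted p = 0.013) was lost without sgRNA_97 replicate 3 or without SCR1 replicate 4, adjusted p from 0.068 to 0.0721. Of 7 VEGF receptor and angiogenic genes, FLT4 and PDGFA (0.62) were higher and FLT1 lower (-0.42). Of 5 oncofetal genes measured HMGA1 alone was called, lower (-0.27, adjusted p = 0.0257), and this was lost without sgRNA_97 replicate 1 or 3 or without SCR1 replicate 1, adjusted p from 0.0865 to 0.113.

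Markers of other blood and tissue cells were at or near 0 for the most part. Of 33 myeloid genes, 11 were listed at 0 in all 6 libraries, including the granule proteases ELANE, PRTN3 and CTSG, and the summed level was 246.6 to 277.2 CPM with sgRNA_97 and 247.7 to 264.3 CPM with SCR1. GRN held the most counts of that list, 1935 to 4080 per library. Among the 13 that could be tested, MPO, a granule enzyme, was at 6.01, 7.07 and 5.65 CPM against 2.88, 2.56 and 2.79 CPM (log2 fold change 1.18, SE 0.18, adjusted p = 0.000917), ITGAM, the integrin CD11b, at 10.6, 11.8 and 12.3 CPM against 6.84, 7.40 and 6.14 CPM (log2 fold change 0.77, SE 0.13, adjusted p = 0.00142) and CD33 at 9.12, 9.01 and 9.05 CPM against 6.03, 6.55 and 5.58 CPM (log2 fold change 0.58, SE 0.13, adjusted p = 0.00993), all higher, while S100A8, described above, and CEBPA, a myeloid transcription factor (-0.45, adjusted p = 0.0335), were lower. The CEBPA call was lost without sgRNA_97 replicate 1 or 4 or without SCR1 replicate 1 or 4, adjusted p from 0.0546 to 0.161. Of 22 T and NK cell markers, 9 were at 0 in all libraries, CD3D, CD3E and CD3G among them, and the sum was 34.33 to 41.35 CPM against 41.64 to 47.39 CPM. Others were present in every library, such as ZAP70 with 207 to 476 counts, LCK with 133 to 323 and NKG7 with 112 to 287. Of 19 erythroid and megakaryocyte markers, 12 were at 0, GATA1 and the globins HBB, HBA1 and HBA2 among them, with sums of 244.9 to 285.0 CPM against 302.8 to 329.4 CPM. The only called member there was TFRC, the transferrin receptor of dividing cells, which makes up most of that sum (278, 237 and 265 CPM against 295, 322 and 307 CPM, -0.25, adjusted p = 0.0131), a call lost without sgRNA_97 replicate 3 or without SCR1 replicate 3, adjusted p from 0.0506 to 0.056. Of 16 stromal and endothelial markers, 9 were at 0 and none was called, with sums of 23.65 to 27.99 CPM against 26.06 to 31.46 CPM. PDGFRB held the most counts of that list, 306 to 564 per library. These 4 lists had 3 higher and 3 lower calls between them, and their part in the other results was not tested.

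The study also used gene lists from other samples, of hematopoietic stem cells that express HLF at successive ages and of leukemia stem cells. Of 263 measured genes that fall as HLF-expressing stem cells mature, 130 were lower and 6 higher with sgRNA_97 (median -0.19), and of 97 that rise with maturation, 41 were higher and 2 lower (median 0.15), against 8.29% higher and 9.08% lower among all genes tested. The members with the smallest p-values in the falling list were TUBA1B, a tubulin (3099, 2999.7 and 2996 CPM against 4069.7, 3769 and 3827 CPM, -0.36), ODC1, the first enzyme of polyamine synthesis (-0.37), PCLAF, a PCNA partner (-0.46), and TMEM97, a sterol-regulated membrane protein (-0.52). In the rising list they were HLA-DRA and HLA-DPB1, SOCS2, and SORL1, a sorting receptor, at 514, 527 and 497 CPM against 309.6, 364 and 309 CPM (log2 fold change 0.65, SE 0.06, adjusted p = 2.18e-05). The falling list shares many genes with replication and metabolism, so the lists are not independent of the groups above. Its lower count was 86 without sgRNA_97 replicate 3, 81 without SCR1 replicate 1, 71 with the offset for transcript length and 72 on either TPM scale, and the 41 of the rising list became 27 and 24 to 25. Of 140 leukemia stem cell genes, 37 were lower and 5 higher (median -0.13), with the chromatin protein HMGB3 (-0.32), PA2G4 (-0.28) and RBM14 (-0.34) beside EBNA1BP2, and this count was 18 without sgRNA_97 replicate 3, 24 without sgRNA_97 replicate 4, 16 without SCR1 replicate 1 and 21 without SCR1 replicate 4, 9 with the offset for transcript length and 12 on either TPM scale.

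The offset for transcript length and the TPM scales also reduced the counts of other lists. In DNA replication, the 38 lower genes became 22 with the offset and 18 on either TPM scale. Sterol and fatty acid synthesis went from 22 to 14 and 10, nucleotide metabolism from 15 to 11 and 5, mitosis from 20 to 7 and 6, DNA repair from 12 to 3 and 3, G1 control from 11 to 5 and 3, and glycolysis and hypoxia from 14 to 8 and 8. On the higher side, adhesion and homing went from 12 to 5 and 2 and the interferon response from 10 to 5 and 3, whereas MHC class II went from 14 to 13 and 13 and the surface antigens from 10 to 9 and 7.

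The direction of change was related to transcript length and base composition. The tested genes were divided into 5 groups of equal size. In the group of shortest genes, with transcripts up to 1283 bases, 94 were higher and 346 lower, and in the longest, from 3907 bases, 449 were higher and 128 lower. By GC content, the group up to 41.7% had 365 higher and 108 lower genes and the group from 57.9% had 129 higher and 392 lower. The median log2 fold change over all genes of a group ran from -0.06 to 0.07 by length and from 0.06 to -0.09 by GC content. After removal of a smooth trend on length, 37 replication genes were lower and 14 MHC class II genes higher, the nuclear oxidative phosphorylation count fell from 32 to 14 and its median from -0.17 to -0.11, and the total was 2215 genes. The part of library composition or RNA quality in this trend was not tested.

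**Figure D4:**
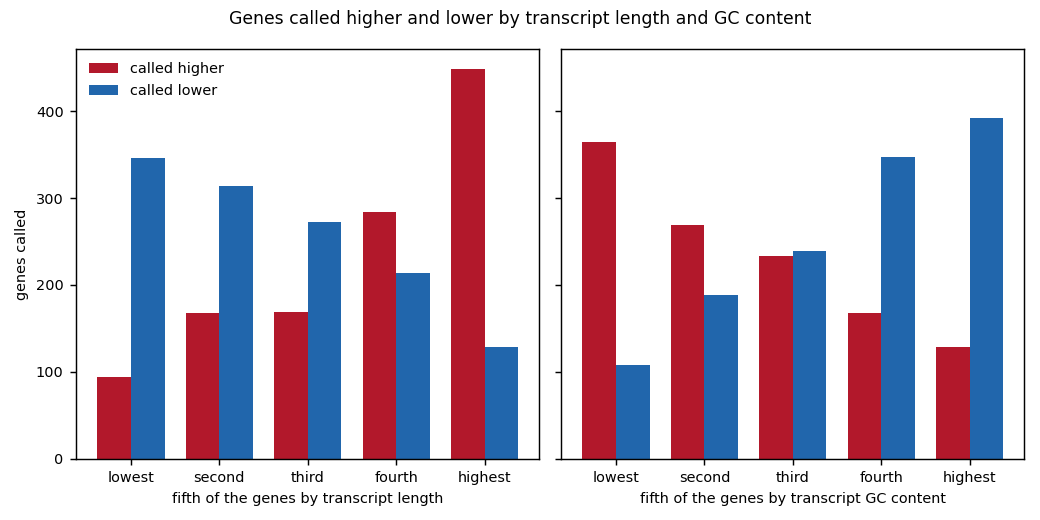
Number of genes called higher (red) and lower (blue) in 5 equal groups of the tested genes by transcript length (left) and by transcript GC content (right). Higher genes increase in number from 94 to 449 with length and decrease from 365 to 129 with GC content, and lower genes do the opposite.

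The other enhancer guide, sgRNA_96, differed from sgRNA_97 beyond the threshold in few gene models. Because both guides were set against the same SCR1 libraries, the values are placed side by side without a test of likeness, and the guides were compared with each other directly. Of 14436 genes tested between sgRNA_97 and sgRNA_96, 3 were called (0.0208%), all of them higher with sgRNA_97, and 503 had an unadjusted p under 0.05, which is 3.48%, while DESeq2 called 8. Against SCR1, in the fit of all 9 libraries, sgRNA_96 gave 1615 calls (11.2%) and sgRNA_97 gave 2181. In the values that follow, those of sgRNA_97 come from the fit of 6 libraries and those of sgRNA_96 from the fit of 9. The log2 fold changes with sgRNA_97 and sgRNA_96 were 3.07 and 2.91 for P2RY14, 0.91 and 0.83 for RAG1, 1.28 and 1.01 for TXNIP, -1.49 and -1.30 for EGR1, -0.42 and -0.40 for MCM2, and -0.09 and -0.14 for MEF2C. The median absolute difference between the guides was 0.07 on the log2 scale. CDC42EP2 was far apart, at -3.73 and -0.36, and is the gene model with shared exons described above.

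Promoters of the called genes were searched for the motifs of HLF and MEF2. RefSeq promoters (GRCh38.p14, 250 bases before to 50 after the start) were scanned on both strands for TTACATAA or TTACGTAA, and 4 of 863 promoters of higher genes (0.463%) and 5 of 1046 of lower genes (0.478%) held a match, against 0.541% of tested and 1.05% of all promoters. For the MEF2 motif, in 3 spellings that share no overlap with the HLF motif, it was 0.232% of higher and 0.191% of lower genes, 2 in each set, against 0.13% of tested promoters. These counts are too small for a comparison, and a match or its absence in this window is a description of letters only.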

How the data were processed

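RNA of HAL-01 cells with sgRNA_97 (n = 3) or SCR1 (n = 3) was compared. Per the labels, the authors made libraries from total RNA with a TruSeq mRNA kit. The submitters' processing notes name STAR, Salmon 1.10.1 and GRCh38. The authors deposited estimated counts per transcript, without normalization, and TPM, which is scaled to a fixed total per library. Each table held 252835 transcripts of 62700 genes, all of which matched GENCODE 44, the source of symbols and coordinates. Of the estimated counts above 0, 87.78% were not whole. Whether counting used strand is not given in the sources used here.

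For each gene, the estimated counts of its transcripts were added up and rounded to whole numbers. Genes passing filterByExpr with a minimum count of 10 were kept, library sizes were scaled by TMM, and groups were compared in R 4.3.3 by edgeR (4.0.16) with its quasi-likelihood test. P-values were adjusted by the Benjamini-Hochberg method across every tested gene. The common biological coefficient of variation was 0.0689. Totals of 15212453 to 29777350 per library set the precision, and genes of few counts could be called only for large changes. Only these 6 libraries entered the fit. The comparison of guides used all 9 libraries and tested 14436 genes. Between replicates, the chi-square was 4.33 to 5.77 times that of sampling noise, so none was counted as a duplicate.

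Alternatives were DESeq2 1.42.0, other size factors, other count filters, an offset for transcript length, limma 3.58.1 on log2(TPM + 1) or log2(TPM + 0.1), a replicate block and each library left out. Offsets for trends on length and GC content were added after the data had been seen. The script was tested on simulated data.

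Members and lists were chosen with earlier results of these data known. Named genes were MEF2C, MEF2A, MEF2D, HLF and TCF3, the 8 largest rises and 8 largest falls among called protein-coding genes with a symbol, no readthrough, a mean of at least 2 CPM in the higher group and no overlap, the 8 smallest p-values of such genes, and in each list up to 4 called members of smallest p with a mean of at least 1 CPM. Other genes were named after their values were seen, and some list members are not reported here. The stem cell lists came from the study and rest on other samples. Guide sequences came from the study's supplementary tables and were matched to GRCh38, and promoters came from RefSeq GRCh38.p14.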

Additional observations from a re-analysis of the deposited data

Results flagged for a closer look

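The direct test of sgRNA_97 against sgRNA_96 in edgeR, with Benjamini-Hochberg adjustment, singled out 3 gene models in which the guides differed, and none of them was chosen beforehand. GVINP1, an interferon-inducible GTPase pseudogene, had 56, 63 and 46 counts with sgRNA_97, 0 in all sgRNA_96 libraries and 73, 67 and 24 with SCR1, at least 59.1-fold higher than with sgRNA_96 when 3 counts over that group are taken as floor (adjusted p = 0.0023). It was called in 12 of 12 settings, with an adjusted p of at most 0.0299. It shares exons with ENSG00000291143, and both together measured 13.2 ± 1.95 CPM with sgRNA_97, 13.7 ± 1.88 CPM with sgRNA_96 and 8.77 ± 0.673 CPM with SCR1 (SD, n = 3), so the guides did not differ beyond the spread once the counts were added.

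ENSG00000285816 had 36, 28 and 20 counts with sgRNA_97 and 0 in every sgRNA_96 and SCR1 library, at least 30.1-fold higher than with sgRNA_96 on the same floor (adjusted p = 0.0269), and was called in 4 of 12 settings. It shares exons with CDC42EP2 and POLA2, and the 3 together measured 65.1 ± 2.36 CPM with sgRNA_97, 65.0 ± 1.99 CPM with sgRNA_96 and 81.2 ± 3.08 CPM with SCR1 (SD, n = 3). Once added, the counts did not differ between the guides beyond the spread. ENSG00000285920 had 42, 35 and 46 counts with sgRNA_97, 0 with sgRNA_96 and 6, 0 and 0 with SCR1 (adjusted p = 0.0193), and was also called in 4 of 12 settings. It shares exons with NUSAP1 and OIP5-AS1, with which it summed to 650 ± 22 CPM with sgRNA_97, 659 ± 44.7 CPM with sgRNA_96 and 702 ± 31.7 CPM with SCR1 (SD, n = 3). All 3 models share exons with other genes, and the part of the division of reads in these differences was not tested. Groups of 3 libraries are too small for the test of single outlying libraries.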

How the results depend on the processing

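No called gene was called in the opposite direction under any of the alternatives, and no named gene that was called changed sign. Changes of sign among other genes that lost their call were not counted. The 2439 calls became 2467 with DESeq2, of which 93.8% of the original calls were part, 2443 with other size factors, 2867 without a count filter, 2557 with a minimum count of 50, 2181 with all 9 libraries, 2215 with the length trend and 2895 with the GC trend removed. The number fell outside 1.5 times its size to 960 with the transcript length offset, 759 with log2(TPM + 1) and 763 with log2(TPM + 0.1), and the 573 genes called among the gene lists to 287, 249 and 251. Leaving out single libraries gave 1256 to 2151 calls and 351 to 522 list genes. Between the guides, 3 calls became 8 with DESeq2, 106 without a count filter, 1 with the replicate block and 1 with the transcript length offset, and 1 to 3 with single libraries left out. MEF2C passed with the GC trend removed, at -0.13 with an adjusted p of 0.033, and ran from -0.06 to -0.15 with single libraries left out. Same-numbered libraries did not deviate together (correlations -0.0208, 0.0377 and -0.0174). Whether they were handled as pairs cannot be told from this. The replicate block gave 2597 calls, 1203 higher and 1394 lower, with 595 genes of the lists. Of 222 named genes, 58 lost their call with the transcript length offset, 81 with either TPM scale, and 12 to 37 when a library was left out. The causes of these differences were not tested. Depth limits calls among rare genes, and a p that misses the threshold does not show equal levels.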

Other observations

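A few members of the lists stood out after their values had been seen. CD74, the invariant chain of MHC class II, was at 1513, 1524 and 1660.3 CPM with sgRNA_97 and 1372, 1264 and 1263 CPM with SCR1 (log2 fold change 0.27, SE 0.05, adjusted p = 0.00233), and CD200, an inhibitory ligand on B cells, at 68.5, 78.3 and 63.7 CPM against 47.8, 51.0 and 52.1 CPM (log2 fold change 0.48, SE 0.08, adjusted p = 0.000983). ALDOA, the glycolytic aldolase, was at 447, 419 and 518 CPM against 697, 567 and 600.2 CPM (log2 fold change -0.43, SE 0.08, adjusted p = 0.0029). In each of the 3 genes all sgRNA_97 libraries lay on 1 side of all controls, and all 3 calls held with any single library left out.

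Other values were less certain. SELPLG, the selectin ligand PSGL-1, measured 1.52, 1.68 and 1.73 CPM against 0.643, 0.569 and 0.993 CPM (1.15, adjusted p = 0.0365), a call lost without sgRNA_97 replicate 1, 3 or 4 or without SCR1 replicate 1 or 3, adjusted p from 0.0686 to 0.148. TNF measured 2.71, 3.67 and 4.34 CPM against 5.48, 5.07 and 7.42 CPM (-0.74, adjusted p = 0.0301), a call lost without sgRNA_97 replicate 1 or 3 or without SCR1 replicate 1 or 4, adjusted p from 0.0604 to 0.147, and TNFRSF8, the receptor CD30, 6.15, 5.24 and 8.63 CPM against 12.1, 9.85 and 10.9 CPM (-0.72, adjusted p = 0.011), a call lost without sgRNA_97 replicate 3 or without SCR1 replicate 1, adjusted p from 0.0527 to 0.0572. Among stress-induced early genes ATF3 (-0.52, adjusted p = 0.0183) lost its call without sgRNA_97 replicate 4 or without SCR1 replicate 1, adjusted p from 0.0596 to 0.104, and JUNB (-0.48, adjusted p = 0.0129) without sgRNA_97 replicate 3 or without SCR1 replicate 1 or 4, adjusted p from 0.0503 to 0.0585.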
